A study of Homo sapiens with 12 samples.

Results

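The 10 genes described here are markers of endothelial cells, the cells that line blood and lymph vessels. They are the receptors KDR, FLT1, FLT4 and TEK, the junction proteins CDH5 and PECAM1, the transcription factors ERG and FLI1, the connexin GJA4 and the surface sialomucin EMCN. They were chosen by name, as the rows of the count table whose symbol is one of the 10, and each symbol matched 1 of the 58735 genes listed. The question was at what level endothelial genes are found in sarcoma cells that express a fusion gene of epithelioid hemangioendothelioma, a vascular sarcoma, and how these levels differ with the fusion and with loss of a chromatin cofactor.

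RNA sequencing was done on SW872, a human cell line from a liposarcoma, a tumour of the fat lineage. The cells of all groups carried a fusion gene brought in by retrovirus, either TAZ-CAMTA1 (TC) or YAP-TFE3 (YT), which join the co-activators TAZ and YAP to the transcription factors CAMTA1 and TFE3. Each line also carried a stable hairpin, which was non-targeting (shNT) in the controls and otherwise directed against YEATS2 (shYEATS2) or ZZZ3 (shZZZ3), whose products belong to ATAC, a complex that acetylates histones. The 6 groups, TC shNT, TC shYEATS2, TC shZZZ3, YT shNT, YT shYEATS2 and YT shZZZ3, had 2 libraries each. A library without a fusion was not analysed here, so no level below is set against SW872 cells alone, and the groups rest on a single cell line that is not of endothelial origin. For other RNA sequencing of these lines the methods of the study state that lines containing CAMTA1 were collected before confluence and other lines after it. Whether this meant the TAZ-CAMTA1 lines too, or only those with full-length CAMTA1, is not stated. Whether it held for the knock-down libraries is not given in the sources used here.

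Total counts ranged from 17451893 to 29294805 per library. YEATS2 was at 113 to 123 CPM (counts scaled to library size, with TMM factors) in TC shNT and 35.1 to 45.5 CPM in TC shYEATS2, and at 115 to 117 CPM in YT shNT and 33.9 to 38.5 CPM in YT shYEATS2. ZZZ3, listed as AC118549.1, was at 25.6 to 60.4 CPM in TC shNT and 21.9 to 22.7 CPM in TC shZZZ3, and at 49.1 to 71.2 CPM in YT shNT and 12.6 to 29.6 CPM in YT shZZZ3, and in YT shYEATS2 it was also below its controls, at 30.7 to 31.4 CPM. The 2 libraries of TC shYEATS2 stood apart from each other for several of the endothelial genes. Results of the 10 genes that rest on this group are therefore given with and without each of them. For genes of the other lists this was not done. Over all genes the counts of paired libraries differed by more than sampling noise in every group, with a chi-square per degree of freedom from 9.82 in TC shZZZ3 to 95.8 in TC shNT, so no library was counted as a copy of another. Of 12 mesenchymal markers 11 passed the filter on low counts, and the list summed to between 5470 and 12500 CPM per library. Of 8 adipocyte markers 4 passed, among them LPL at 73.3 to 286 CPM, while ADIPOQ and CIDEC had 3 or fewer counts in each library and LEP had none. Of 12 blood cell and platelet markers 4 passed, with a sum of 16.1 to 31.6 CPM, and the pan-leukocyte gene PTPRC had 3 or fewer counts in each library. All 8 epithelial markers passed, with a sum of 295 to 926 CPM, and 7 of 10 pericyte and smooth muscle markers, with a sum of 174 to 456 CPM. The study describes the 2 libraries of a condition as biological duplicates, and reports separate transductions for its triplicates. Whether the duplicates were also transduced separately is not given in the sources used here. The p-values below measure the spread between these libraries, which may not cover that between transductions.

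Endothelial cells are held in their state by transcription factors of the ETS family, among them ERG and FLI1, which bind near many genes of the lineage. Vascular endothelial growth factors signal through the receptor tyrosine kinases KDR, FLT1 and FLT4, and angiopoietins through the receptor TEK. VE-cadherin, the product of CDH5, and PECAM1 join neighbouring endothelial cells at their contacts. YAP and TAZ have no DNA-binding domain of their own and act through TEAD factors, whose core motif is GGAATG.

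Reference promoters were searched for GGAATG, for the E-box CACGTG that TFE3 and its relatives bind, and for the AP-1 motif TGANTCA, on both strands. The table of promoters used here (RefSeq, GRCh38.p14, 250 bases before to 50 bases after a start) held 9 promoters of 5 of the 10 genes, KDR, FLT1, TEK, ERG and EMCN. FLT4, CDH5, PECAM1, FLI1 and GJA4 had no entry. GGAATG was found in 3 of the 9 promoters, 2 of ERG and 1 of EMCN, and in 14% of all 35116 promoters of the same length. Some of the 9 entries, of ERG and of TEK, overlap each other, so they are not 9 separate sequences and cannot show an enrichment. CACGTG and TGANTCA were in none of the 9, and in 7.26% and 7.71% of all promoters. The 250 bases before the start are shown for the ERG promoters with a match and for FLT1, because these genes fell furthest with a hairpin in the YT line among the 5 with an entry, and for EMCN, the other gene with a match. Capitals mark the match, which reads CATTCC where it lies on the other strand.
ERG, chr21:38660668-38660917, minus strand: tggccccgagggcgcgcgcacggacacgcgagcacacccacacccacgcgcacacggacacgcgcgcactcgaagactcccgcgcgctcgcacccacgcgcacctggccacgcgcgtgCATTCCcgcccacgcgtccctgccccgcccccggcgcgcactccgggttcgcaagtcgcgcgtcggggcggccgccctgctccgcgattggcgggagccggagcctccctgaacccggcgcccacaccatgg
ERG, chr21:38584946-38585195, minus strand: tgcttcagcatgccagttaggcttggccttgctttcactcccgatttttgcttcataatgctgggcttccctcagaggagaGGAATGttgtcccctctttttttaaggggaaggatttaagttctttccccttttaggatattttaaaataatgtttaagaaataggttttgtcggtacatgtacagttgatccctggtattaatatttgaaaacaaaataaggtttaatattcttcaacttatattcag
EMCN, chr4:100518023-100518272, minus strand: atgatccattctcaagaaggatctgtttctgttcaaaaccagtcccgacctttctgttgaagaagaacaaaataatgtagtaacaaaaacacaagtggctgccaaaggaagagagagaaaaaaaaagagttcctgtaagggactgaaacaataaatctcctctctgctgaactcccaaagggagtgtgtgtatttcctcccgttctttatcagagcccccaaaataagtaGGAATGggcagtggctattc
FLT1, chr13:28495129-28495378, minus strand: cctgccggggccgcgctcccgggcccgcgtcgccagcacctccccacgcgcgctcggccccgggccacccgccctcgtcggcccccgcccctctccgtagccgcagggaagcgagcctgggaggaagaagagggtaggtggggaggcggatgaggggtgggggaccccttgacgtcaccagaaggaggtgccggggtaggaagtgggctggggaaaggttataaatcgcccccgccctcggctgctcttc
The match in the first ERG promoter lay at bases 119 to 124 from the 5′ end shown, that in the second at bases 82 to 87, and that in EMCN at bases 231 to 236. A match is a description of these letters and was not tested for binding.

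All 10 genes passed the filter of a mean of 5 counts over the 12 libraries. Set side by side per length, as mean CPM per kilobase (kb) of exon over the 12 libraries, the genes spanned a wide range. FLI1 was the highest at 9.55 CPM per kb, above 74.7% of the 18415 genes tested, and CDH5 followed at 6.9 CPM per kb, above 67.8%. KDR was at 4.54 CPM per kb, TEK at 2.93, FLT1 at 1.64 and ERG at 1.42. PECAM1 and GJA4 were both at 1.03 CPM per kb, above about the same share of genes (32.2% and 32.1%). FLT4, at 0.189 CPM per kb, lay above 9.94% of the genes tested and EMCN, at 0.0635 CPM per kb, above 2.5%. With the longest annotated transcript as the length in place of all exon bases, the order of the 10 genes was kept, with FLT1 at 2.9 CPM per kb, ERG at 2.14 and FLT4 at 0.287, each over 1.5 times the value above. A single gene was at the floor of detection in a group, taken as 3 or fewer counts in each library, namely EMCN in TC shZZZ3. In bulk RNA, a level that differs because fewer cells express a gene and one that differs because each cell holds less of its RNA cannot be told apart.

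**Figure D1:**
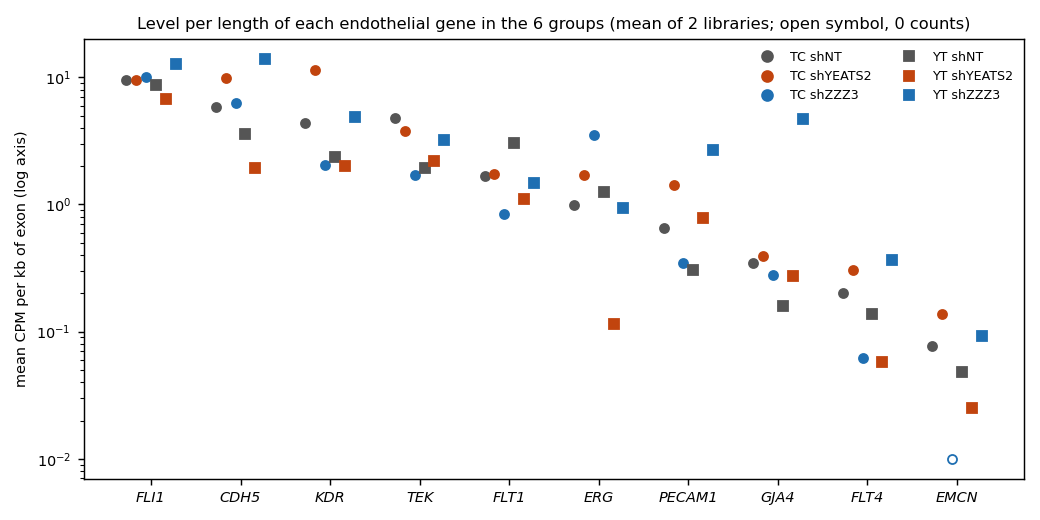
Mean level of each endothelial gene per length in the 6 groups, in CPM per kb of exon on a log axis, with genes ordered by their level over all groups (circles TC, squares YT, means of 2 libraries). FLI1 stayed between 6.76 and 12.7 CPM per kb, ERG in YT shYEATS2 and GJA4 in YT shZZZ3 stood away from their other groups, and EMCN in TC shZZZ3 was at 0 counts (open symbol, drawn at the axis foot).

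Of the VEGF receptors, FLT1 was called against its controls in the YT line, and KDR and FLT4 were not called with either hairpin. KDR (ENSG00000128052, GRCh38 chromosome 4, 55078481 to 55125595, minus strand) codes for VEGFR2, the main signalling receptor for VEGF-A. It was at 24.6 and 31.2 CPM in the TC shNT libraries, 12.8 and 133 CPM in TC shYEATS2, and 13.2 and 12.8 CPM in TC shZZZ3. In the YT line it was at 14.9 and 15.1 CPM in shNT, 14.4 and 11.2 CPM in shYEATS2, and 26.8 and 35.2 CPM in shZZZ3. Both TC shZZZ3 libraries lay below both TC controls and both YT shZZZ3 libraries above both YT controls, but neither difference passed the test across all genes. On the log2 scale KDR differed by -1.09 (SE 0.699, adjusted p 0.688) for TC shZZZ3 and 1.04 (SE 0.698, adjusted p 0.395) for YT shZZZ3. With no filter on low counts both passed (adjusted p 0.00251 and 0.00127), and the latter also with only the libraries of the contrast (adjusted p 0.041). The fit with no filter also passed the TC shYEATS2 change (1.35, adjusted p 0.00021), with libraries at 12.8 and 133 CPM. A pass in that fit thus did not need libraries that stood together. The second TC shYEATS2 library, with 2649 counts, was above all others, and the SE of the TC shYEATS2 change of 1.38 was 0.692 (adjusted p 1). Without that library the TC shYEATS2 value was -1.14 (adjusted p 0.168), and without the first library of the group it was 2.23 (adjusted p 0.00949), so its direction rests on which of the 2 is kept. In order of group means, TC shYEATS2, YT shZZZ3 and TC shNT overlapped in their libraries, while YT shNT lay below TC shNT, and TC shZZZ3 and YT shYEATS2 overlapped at the low end.

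FLT1 (ENSG00000102755, chromosome 13, 28300346 to 28495145, minus strand) codes for VEGFR1, which binds VEGF-A tightly and, as a soluble form, holds it away from KDR. Its levels were 15.8 and 26.04 CPM in TC shNT, 19.1 and 24.5 CPM in TC shYEATS2, and 11.3 and 9.94 CPM in TC shZZZ3. In YT they were 38.1 and 38.1 CPM in shNT, 14.2 and 13.7 CPM in shYEATS2, and 15.9 and 21.1 CPM in shZZZ3. The YT controls were the highest of all libraries and nearly equal, and every YT knock-down library lay below both of them. FLT1 fell with each hairpin in YT, by 1.44 on the log2 scale with shYEATS2 (SE 0.263, adjusted p 0.00306) and by 1.04 with shZZZ3 (SE 0.26, adjusted p 0.0272). The same controls serve both comparisons. The shYEATS2 call held under each of 11 alternatives. The shZZZ3 call was lost with scaling by library totals (adjusted p 0.0586), without either YT shNT library (adjusted p 0.157 and 0.158) and without the first YT shZZZ3 library (adjusted p 0.168). In TC, FLT1 with shZZZ3 was -0.97 (SE 0.263, adjusted p 0.121), with both libraries below both controls, and it passed without the first TC shNT library (-1.31, adjusted p 0.0363). TC shYEATS2 overlapped its controls, at 0.06 (SE 0.258). YT shNT against TC shNT was 0.87 (SE 0.259, adjusted p 0.0596), which passed without the second TC shNT library (1.24, adjusted p 0.0134). By group means the order was YT shNT, then TC shYEATS2, TC shNT and YT shZZZ3, which overlapped in turn, then YT shYEATS2 and TC shZZZ3.

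FLT4 (ENSG00000037280, chromosome 5, 180601506 to 180649624, minus strand) codes for VEGFR3, the receptor for VEGF-C that marks lymphatic endothelium. It was counted rarely, at 57 and 29 counts (2.17 and 1.39 CPM) in TC shNT, 52 and 72 counts (1.83 and 3.62 CPM) in TC shYEATS2, and 10 and 13 counts (0.406 and 0.695 CPM) in TC shZZZ3. In YT there were 21 and 23 counts (1.11 and 1.32 CPM) in shNT, 7 and 14 counts (0.291 and 0.723 CPM) in shYEATS2, and 91 and 76 counts (3.31 and 3.21 CPM) in shZZZ3. The shZZZ3 libraries lay below their controls in TC and above them in YT. Neither change passed on its own, with -1.58 (SE 0.494, adjusted p 0.144) for the TC line and 1.36 (SE 0.44, adjusted p 0.0643) for the YT line. YT shYEATS2 was also below its controls, at -1.16 (SE 0.528, adjusted p 0.104). YT shZZZ3 overlapped TC shYEATS2, which overlapped TC shNT, and the lowest groups, TC shZZZ3 and YT shYEATS2, overlapped each other.

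TEK (ENSG00000120156, chromosome 9, 27109141 to 27230174, plus strand) codes for TIE2, the angiopoietin receptor. It stood at 19.1 and 26.6 CPM in TC shNT, 12.2 and 24.2 CPM in TC shYEATS2, and 7.19 and 9.19 CPM in TC shZZZ3, and at 8.92 and 9.60 CPM in YT shNT, 10.2 and 11.2 CPM in YT shYEATS2, and 14.4 and 16.5 CPM in YT shZZZ3. The second TC shNT library was the highest of all 12, the TC shNT and TC shYEATS2 libraries overlapped, and both TC shZZZ3 libraries were below both controls. TEK fell with shZZZ3 in TC by 1.47 on the log2 scale (SE 0.315, adjusted p 0.0426). This call was lost without the second TC shNT library (-1.24, adjusted p 0.140), without the first or second TC shZZZ3 library (adjusted p 0.430 and 0.212), with library totals (adjusted p 0.0767), with a filter at a mean of 20 counts (adjusted p 0.0509) and with only the libraries of the contrast in the fit (adjusted p 0.0809). The YT controls were lower in TEK than the TC controls, by -1.29 (SE 0.314, adjusted p 0.0251), and this call was lost without the second TC shNT library (-1.06, adjusted p 0.0543) and without either YT shNT library (adjusted p 0.179 and 0.143). The change with shZZZ3 in YT was 0.73 (SE 0.312, adjusted p 0.174), with both libraries above both controls. TC shNT, TC shYEATS2 and YT shZZZ3 overlapped in order, as did YT shNT and TC shZZZ3 at the low end, and YT shYEATS2 lay between them.

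**Figure D2:**
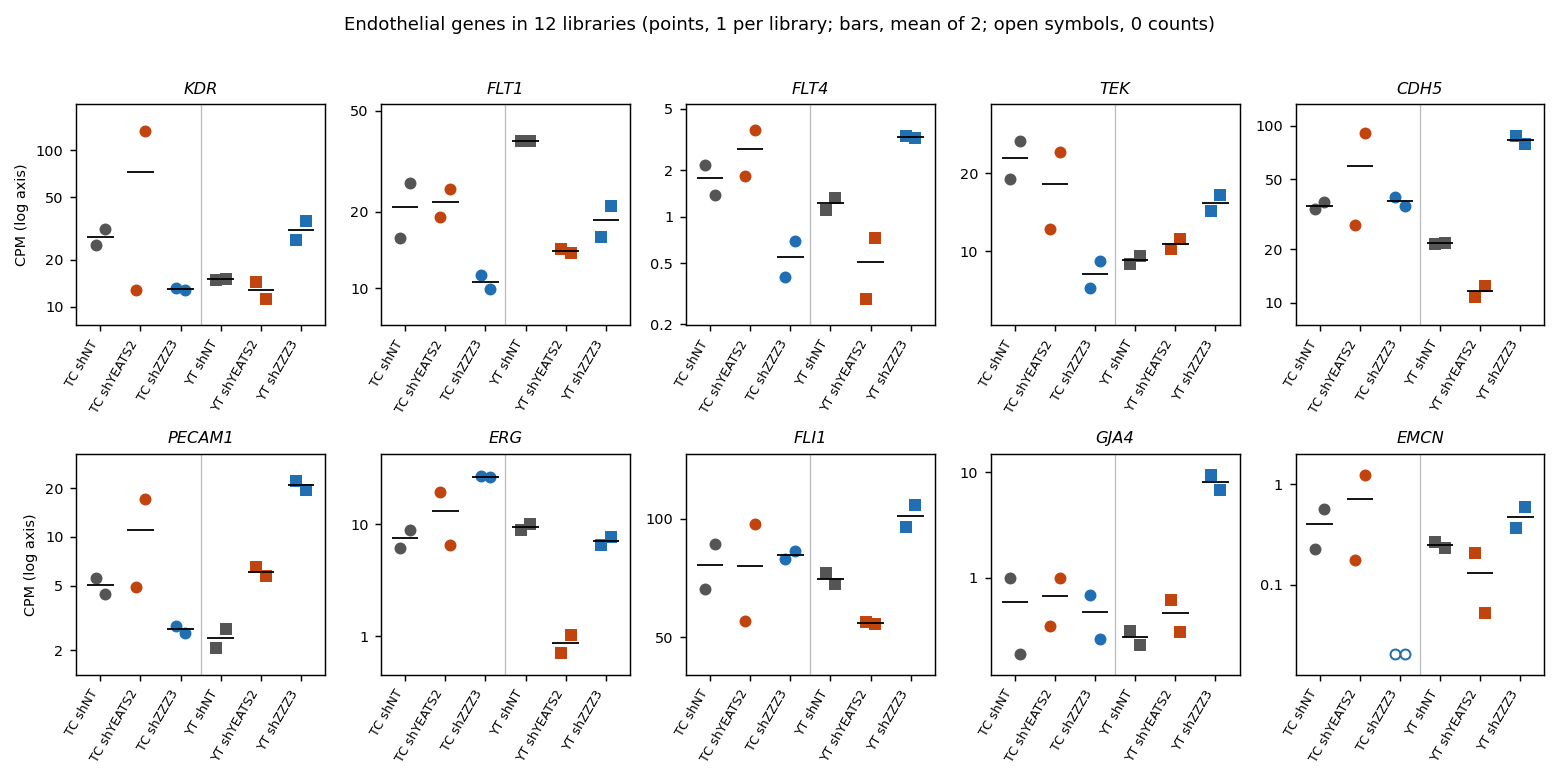
CPM of the 10 endothelial genes in each of the 12 libraries, on a log axis that differs between panels (circles TC, squares YT; grey shNT, orange shYEATS2, blue shZZZ3; bars are means of 2 libraries). The TC shYEATS2 pair was wide apart for KDR (12.8 and 133 CPM), CDH5 (27.6 and 91.4 CPM) and PECAM1 (4.90 and 17.1 CPM), while GJA4 in YT shZZZ3 and ERG in YT shYEATS2 lay outside all other libraries of their panels, and the open EMCN symbols are 0 counts.

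The junction genes rose with shZZZ3 in YT. CDH5 (ENSG00000179776, chromosome 16, 66366690 to 66404784, plus strand) was at 33.7 and 37.1 CPM in TC shNT, 27.6 and 91.4 CPM in TC shYEATS2, and 39.8 and 35.3 CPM in TC shZZZ3. In YT it was at 21.6 and 21.9 CPM in shNT, 10.8 and 12.5 CPM in shYEATS2, and 87.1 and 79.3 CPM in shZZZ3. The YT groups were apart in all their libraries, with shZZZ3 the highest and shYEATS2 the lowest. CDH5 rose in YT shZZZ3 by 1.93 on the log2 scale (SE 0.407, adjusted p 0.0121), a fold of 3.82. This call was lost without either YT shNT library (adjusted p 0.105 and 0.102), although the value stayed between 1.91 and 1.99 under all 11 alternatives. The YT shYEATS2 value was -0.90 (SE 0.406, adjusted p 0.138). In TC, shZZZ3 gave 0.08 (SE 0.393) with overlapping libraries. The TC shYEATS2 value of 0.75 (SE 0.394, adjusted p 1) became 1.35 (adjusted p 0.0235) without the first library of that group and -0.38 (adjusted p 0.797) without the second. YT shZZZ3, TC shYEATS2, TC shZZZ3 and TC shNT overlapped in order of their means, and YT shNT and YT shYEATS2 lay below them in turn.

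PECAM1 (ENSG00000261371, chromosome 17, 64319415 to 64413776, minus strand) codes for CD31, an adhesion molecule of endothelial contacts, platelets and leukocytes. Its levels were 5.61 and 4.44 CPM in TC shNT, 4.90 and 17.1 CPM in TC shYEATS2, and 2.80 and 2.57 CPM in TC shZZZ3. In YT they were 2.06 and 2.70 CPM in shNT, 6.49 and 5.73 CPM in shYEATS2, and 22.2 and 19.5 CPM in shZZZ3. The YT shZZZ3 libraries were the highest of all 12. PECAM1 rose in YT shZZZ3 by 3.08 on the log2 scale (SE 0.481, adjusted p 0.00242), a fold of 8.48, and the call held under each of 11 alternatives, with values of 2.92 to 3.31. YT shYEATS2 also lay above its controls, at 1.33 (SE 0.473, adjusted p 0.0628), and passed with the DESeq2 test (1.38, adjusted p 0.0178). In TC, shZZZ3 lay below its controls at -0.88 (SE 0.463, adjusted p 0.538). The TC shYEATS2 value of 1.103 (SE 0.442, adjusted p 0.834) was 1.73 (adjusted p 0.0251) without the first library of the group and -0.06 (adjusted p 1) without the second. After YT shZZZ3 came TC shYEATS2 and YT shYEATS2, which overlapped, then TC shNT, and then TC shZZZ3 and YT shNT, which overlapped.

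Of the ETS factors, ERG fell in YT shYEATS2 and FLI1 passed in no contrast. ERG (ENSG00000157554, chromosome 21, 38380027 to 38661780, minus strand) was at 6.10 and 8.94 CPM in TC shNT, 19.5 and 6.53 CPM in TC shYEATS2, and 27.1 and 26.2 CPM in TC shZZZ3. In YT it was at 8.98 and 10.01 CPM in shNT, 0.708 and 1.03 CPM in shYEATS2, and 6.48 and 7.74 CPM in shZZZ3. The YT shYEATS2 libraries, with 17 and 20 counts, were the lowest of all and the TC shZZZ3 libraries the highest. ERG fell in YT shYEATS2 by 3.33 on the log2 scale (SE 0.495, adjusted p 6.89e-04), to 0.0992 of its control level, and the call held under each of 11 alternatives, with values of -3.59 to -3.08. In TC shZZZ3 both libraries were above both controls, at 1.82 (SE 0.413, adjusted p 0.0581). That value missed the threshold over all 6 groups. It passed with the DESeq2 test (1.83, adjusted p 9.61e-04) and with only the libraries of the contrast (1.78, adjusted p 0.0436). It also passed with no filter on low counts (1.79, adjusted p 1.04e-06), a fit that passed KDR in TC shYEATS2 despite its spread libraries. YT shZZZ3 was at -0.41 (SE 0.411, adjusted p 0.583). The TC shYEATS2 value of 0.80 (SE 0.408, adjusted p 1) turned to -0.22 without the first library of that group. Below TC shZZZ3, TC shYEATS2 overlapped YT shNT, TC shNT overlapped YT shZZZ3, and YT shYEATS2 stood alone at the low end, 30.6-fold below the highest group mean.

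FLI1 (ENSG00000151702, chromosome 11, 128686535 to 128813267, plus strand) was the steadiest of the 10 genes, with a ratio of 1.88 between its highest and lowest group means. It was at 66.2 and 86.4 CPM in TC shNT, 55.0 and 96.8 CPM in TC shYEATS2, and 79.1 and 82.8 CPM in TC shZZZ3. In YT it was at 72.8 and 68.3 CPM in shNT, 54.6 and 54.0 CPM in shYEATS2, and 95.2 and 108 CPM in shZZZ3. The 3 TC groups overlapped one another, and the YT groups did not. FLI1 passed in none of the 7 contrasts by edgeR over all 6 groups. Its furthest values were 0.53 in YT shZZZ3 (SE 0.244, adjusted p 0.208) and -0.38 in YT shYEATS2 (SE 0.244, adjusted p 0.293). The latter passed with only the libraries of the contrast in the fit (adjusted p 0.0124). An exon of FLI1 shares 162 bases with SENCR, a long non-coding RNA on the opposite strand that had 89 to 318 counts. The libraries were stranded but the strand setting of the counting is not given in the sources used here. SENCR moved by -0.12 (SE 0.322) in YT shYEATS2 and 0.56 (SE 0.318) in YT shZZZ3, with adjusted p of 0.808 and 0.305.

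The remaining pair were near the floor in most groups. GJA4 (ENSG00000187513, chromosome 1, 34792999 to 34795747, plus strand) codes for connexin 37, a gap junction protein of arterial endothelium. It had 26 and 4 counts (0.992 and 0.191 CPM) in TC shNT, 10 and 20 counts (0.352 and 1.01 CPM) in TC shYEATS2, and 17 and 5 counts (0.690 and 0.267 CPM) in TC shZZZ3. In YT it had 6 and 4 counts (0.317 and 0.230 CPM) in shNT, 15 and 6 counts (0.624 and 0.310 CPM) in shYEATS2, and 258 and 162 counts (9.39 and 6.85 CPM) in shZZZ3. The YT shZZZ3 libraries stood far above the other 10, which all overlapped along the order of group means. GJA4 rose in YT shZZZ3 by 4.50 on the log2 scale (SE 0.707, adjusted p 0.00174), and the call held under each of 11 alternatives, with values of 4.29 to 4.9. The ratio of summed counts per depth was 29.8, with a 95% interval of 16.1 to 62.7 that covers counting error only. In each of the other knock-down groups the libraries overlapped those of the control.

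EMCN (ENSG00000164035, chromosome 4, 100395341 to 100880126, minus strand) codes for endomucin, a sialomucin of capillary and venous endothelium. It had 6 and 12 counts (0.229 and 0.573 CPM) in TC shNT, 5 and 25 counts (0.176 and 1.26 CPM) in TC shYEATS2, and 0 and 0 counts in TC shZZZ3. In YT it had 5 and 4 counts (0.264 and 0.230 CPM) in shNT, 5 and 1 counts (0.208 and 0.0516 CPM) in shYEATS2, and 10 and 14 counts (0.364 and 0.592 CPM) in shZZZ3. Against a floor of 3 counts per library, EMCN was at least 2.84-fold lower in TC shZZZ3 than in TC shNT, a comparison that did not pass the test (adjusted p 0.220). In the other 3 hairpin comparisons and between the control lines the 95% counting interval of the ratio spanned 1, so no difference was detectable at this depth. The ratio of summed counts was 1.89 for YT shZZZ3 against YT shNT, with an interval of 0.85 to 4.63.

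Counted by comparison, the calls among the 10 genes were few in TC and more in YT, as were those over all genes. Of 18415 genes tested, 8 were called in TC shYEATS2 and 281 in TC shZZZ3, against 3821 in YT shYEATS2 and 1846 in YT shZZZ3. In TC shYEATS2, 0 of the 10 passed by edgeR (adjusted p under 0.05), where 0.0326% of all genes tested were called higher and 0.0109% lower. At an unadjusted p under 0.05 there was 1, PECAM1, and DESeq2 called 0. The median log2 fold change of the 10 was 0.62, against -0.01 over all genes, and 8 of the 10 values were above 0. As given above, KDR, CDH5 and PECAM1 took opposite signs without one or the other library of that group. Without its first library 3 of the 10 passed, these same 3 genes. The epithelial markers were also apart in this group, with sums of 300 and 926 CPM against 295 and 547 CPM in TC shNT, and their part in these values was not tested.

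In TC shZZZ3, 1 of the 10 genes passed, TEK, which fell, against a background of 0.934% of genes called higher and 0.592% lower. The median of the 10 was -0.93 against -0.01 over all genes, and 5 of the 10 had an unadjusted p under 0.05. DESeq2 called 3, TEK, FLT1 and ERG. The 3 VEGF receptors and PECAM1 had values below 0, from -1.58 to -0.88, as had TEK (-1.47), GJA4 (-0.27) and EMCN. EMCN was the lowest at -2.43, with 0 counts in both TC shZZZ3 libraries. The 3 values above 0 were those of ERG (1.82), CDH5 (0.08) and FLI1 (0.09). Leaving out single libraries of this contrast gave 0 to 2 called genes, with 0 without the second TC shNT library or either TC shZZZ3 library. In TC shZZZ3 the mesenchymal markers summed to 5470 to 6930 CPM against 10400 to 12300 CPM in TC shNT (2 of 11 fell). FN1, the most abundant of them, was at a mean of 3590 CPM against 8770 CPM, and the list median was -0.169. The pericyte markers summed to 174 to 204 CPM against 364 to 391 CPM (1 of 7 fell). The gene that fell, RGS5, was at a mean of 11.6 CPM against 152 CPM, and the list median was -0.309. The epithelial markers were higher in sum, at 761 to 923 CPM against 295 to 547 CPM, and the adipocyte markers lower, at 123 to 130 CPM against 187 to 225 CPM, with 0 genes of either list called by edgeR or DESeq2 and 2 and 1 at an unadjusted p under 0.05. The part of these lists in the values of the endothelial genes was not tested.

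In YT shYEATS2, 2 of the 10 passed, FLT1 and ERG, which both fell, while 9.61% of all genes were called higher and 11.1% lower. The median of the 10 was -0.48 against -0.01 over all genes. PECAM1, at 1.33, had the highest value of the 10. The count stayed at 2 when any single library of the contrast was left out and was 6 with only the libraries of the contrast in the fit, a fit in which 8719 genes were called. The blood cell markers summed to 30.2 to 31.6 CPM in these libraries against 16.2 to 17.8 CPM in YT shNT (1 of 4 rose), and the pericyte markers to 227 to 321 CPM against 401 to 456 CPM (5 of 7 fell). The mesenchymal markers summed to 7770 to 9760 CPM against 10200 to 12500 CPM (3 of 11 rose and 1 fell). FN1, the most abundant of them, was at a mean of 5950 CPM against 9440 CPM and was not called. The median log2 fold change of that list was 0.205. The adipocyte markers summed to 160 to 168 CPM against 229 to 235 CPM (1 of 4, CEBPA, fell by 3.56, adjusted p 4.39e-04). The epithelial markers overlapped in sum, and 2 of 8 fell. The part of these lists in the values of the endothelial genes was not tested.

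In YT shZZZ3, 4 of the 10 passed, and 3 of them rose, CDH5, PECAM1 and GJA4, where 4.4% of all genes were called higher. The fourth, FLT1, fell, where 5.62% were called lower. The median of the 10 was 0.89 against 0.01 over all genes, and 8 of the 10 values were above 0. Leaving out single libraries gave 2 to 4 called genes, with 2 (PECAM1 and GJA4) without either YT shNT library, and DESeq2 called 5, FLT4 among them (1.43, adjusted p 0.0419). In the same libraries the mesenchymal markers summed to 5790 to 5980 CPM, against 10200 to 12500 CPM in YT shNT. FN1, the most abundant of that list, fell by 1.63 on the log2 scale (adjusted p 0.00461), and 4 other genes of it rose. The pericyte markers summed to 297 to 327 CPM against 401 to 456 CPM (2 of 7 fell) and the adipocyte markers to 133 to 171 CPM against 229 to 235 CPM (1 of 4, CEBPA, fell by 1.54, adjusted p 0.0324). The epithelial markers overlapped in sum, and 1 of 8 fell. The blood cell markers summed to 19.6 to 26.1 CPM against 16.2 to 17.8 CPM, with 0 of the 4 tested called by edgeR, 1 at an unadjusted p under 0.05 and 0 called by DESeq2. The part of these lists in the changes of the endothelial genes was not tested.

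**Figure D3:**
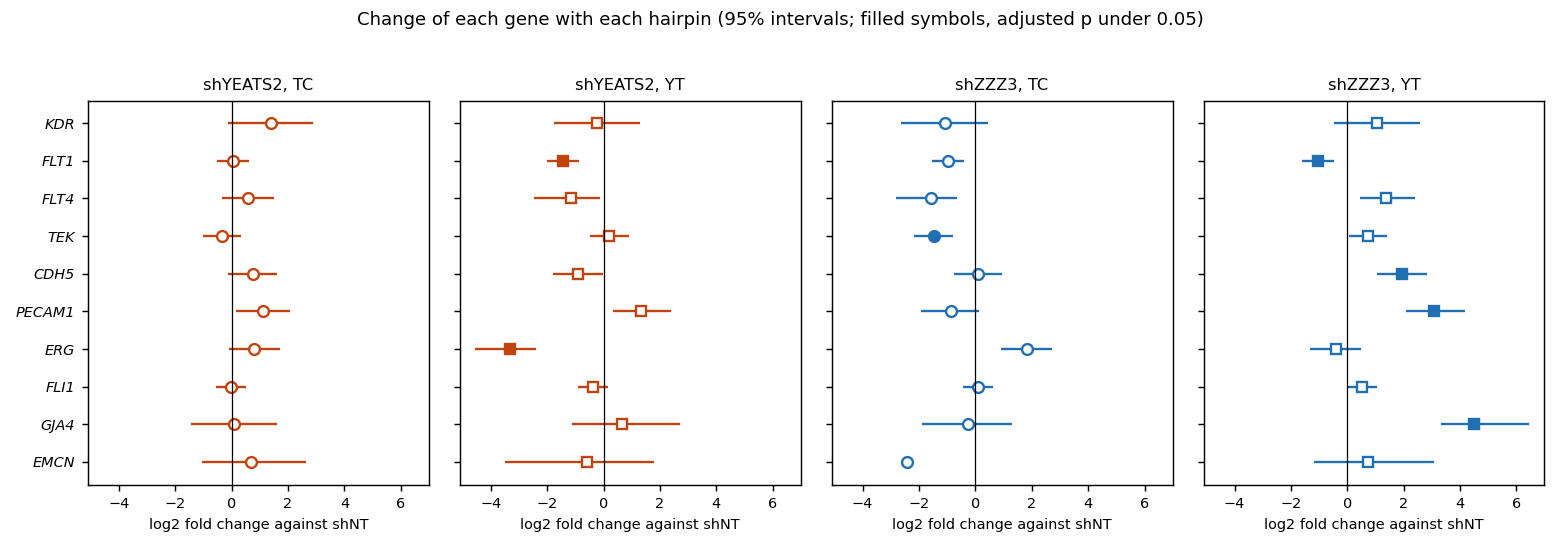
Log2 fold change of each endothelial gene with each hairpin against the shNT libraries of its own line, with 95% intervals from the edgeR fit (filled symbols have an adjusted p under 0.05; no interval is drawn for EMCN in TC shZZZ3, where both counts are 0). The filled symbols are TEK in TC shZZZ3, FLT1 and ERG in YT shYEATS2, and FLT1, CDH5, PECAM1 and GJA4 in YT shZZZ3. Points use a prior count and intervals do not, so a point need not lie at the centre of its interval.

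Between the control lines, 1 of the 10 genes passed, TEK, which was lower in the YT controls. Over all genes 5.58% were called higher in YT and 3.65% lower, so 1 call among the 10 was near the share over all genes. The median of the 10 was -0.62 against -0.01 over all genes. PECAM1 was at -1.06 (SE 0.474, adjusted p 0.190), KDR at -0.89 and CDH5 at -0.70, with both YT libraries below both TC libraries for each of these 3 genes. FLI1, GJA4 and EMCN overlapped between the lines. Of the mesenchymal markers 5 of 11 were lower in the YT controls, with COL1A2 at -3.21 (adjusted p 1.54e-05) and COL1A1 at -2.21 (adjusted p 4.62e-04), although the sums of the list overlapped. The epithelial gene ESRP1 was higher in the YT controls (2.68, adjusted p 1.36e-04), and 0 of 7 pericyte genes, 0 of 4 adipocyte genes and 0 of 4 blood cell genes were called by edgeR or DESeq2, with 2, 0 and 0 at an unadjusted p under 0.05. The part of these genes was not tested. The lines may have differed in the confluence at which cells were collected, which cannot be told apart from the fusion here.

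Because a change that passes in one line and not in the other need not differ between them, the difference of each hairpin's effect (YT minus TC) was tested as an interaction. For shYEATS2, 2 of the 10 genes passed, both lower in YT, against 3.53% of all genes called higher and 5.84% lower. ERG differed by -4.13 (SE 0.642, adjusted p 0.00186), and the call held under each of 15 alternatives. FLT1 differed by -1.50 (SE 0.367, adjusted p 0.0252). That call was lost without the first TC shNT library (-1.16, adjusted p 0.0552), the second TC shYEATS2 library (-1.28, adjusted p 0.0825), either YT shNT library (adjusted p 0.0995 and 0.0974) or either YT shYEATS2 library (adjusted p 0.104 and 0.113). CDH5 and FLT4 differed by -1.64 and -1.73 with adjusted p of 0.0984 and 0.111. Without the first TC shYEATS2 library KDR (-2.44, adjusted p 0.00255) and CDH5 (-2.23, adjusted p 9.07e-04) passed too. Without the second, KDR was at 0.93 (adjusted p 0.16) and CDH5 at -0.51 (adjusted p 0.296), while PECAM1 passed at 1.4 (adjusted p 0.0384), having been at -0.39 (adjusted p 0.579) without the first. Among the other marker lists 3 of 11 mesenchymal genes were called higher and 1 lower in this interaction. Lower were also 2 of 7 pericyte genes, 2 of 8 epithelial genes and 1 of 4 adipocyte genes. KRT8, 1 of these epithelial genes, was at 315 and 60.1 CPM in the TC shYEATS2 libraries. The part of these lists was not tested.

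For shZZZ3, 4 of the 10 genes passed, all higher in YT, where 1.46% of all genes tested were called higher and 2.86% lower. The effect differed by 4.76 for GJA4 (SE 1.03, adjusted p 0.0175), 3.97 for PECAM1 (SE 0.664, adjusted p 0.00735), 2.94 for FLT4 (SE 0.661, adjusted p 0.0214) and 2.20 for TEK (SE 0.443, adjusted p 0.0182). The PECAM1 call held under each of 15 alternatives. The GJA4 call was lost without the first TC shNT library (3.46, adjusted p 0.173), the second TC shZZZ3 library (adjusted p 0.0764) or either YT shNT library (adjusted p 0.0718 and 0.0891). The FLT4 call was lost without the first TC shNT library (adjusted p 0.0542), either TC shZZZ3 library (adjusted p 0.122 and 0.0621) or either YT shNT library (adjusted p 0.101 and 0.0842), and the TEK call without either TC shZZZ3 (adjusted p 0.1 and 0.0618) or YT shNT library (adjusted p 0.0899 and 0.0836). ERG differed in the other direction, by -2.23 (SE 0.581, adjusted p 0.0549), which missed the threshold. It passed under 5 of 15 alternatives, among them DESeq2 (adjusted p 0.00442), no filter on low counts (adjusted p 3.77e-05), only the libraries of the contrast (adjusted p 0.0156) and the fit without the second TC shNT library (-2.47, adjusted p 0.0436). Its value lay between -2.47 and -1.94 throughout. CDH5 differed by 1.85 (SE 0.561, adjusted p 0.0982) and KDR by 2.14 (SE 0.988, adjusted p 0.298). For FLT1 the difference was -0.07, with a 95% interval of -0.87 to 0.74. The median over the 10 genes was 2.17 against 0.04 over all genes, and over the 10 it was -1.38 against -0.01 for shYEATS2. In the shZZZ3 interaction 4 of 11 mesenchymal genes were called higher and 1 of 8 epithelial genes lower, and their part was not tested.

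**Figure D4:**
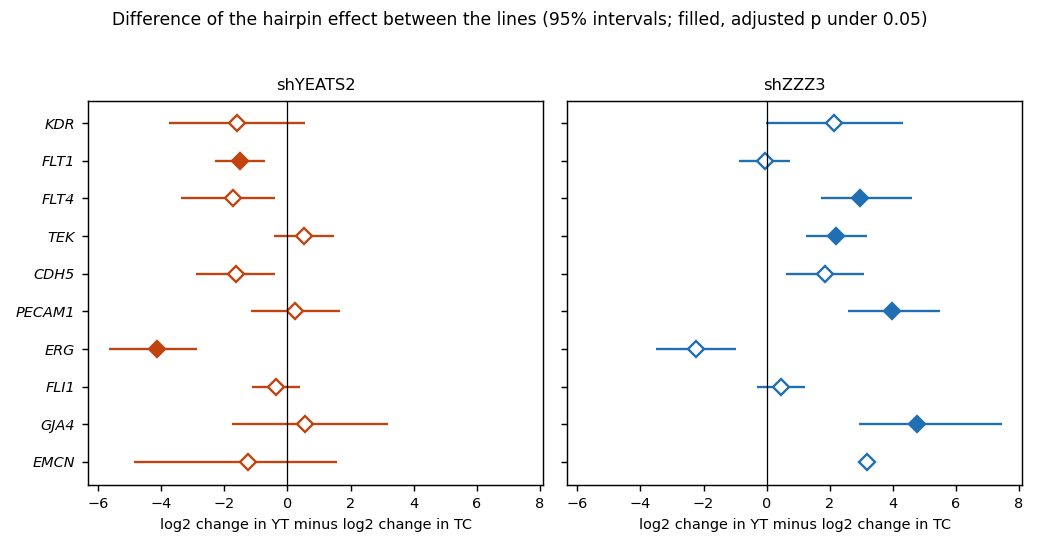
Difference of the log2 change with each hairpin between the lines, YT minus TC, for the 10 endothelial genes, with 95% intervals (filled diamonds have an adjusted p under 0.05; no interval is drawn for EMCN with shZZZ3). FLT1 and ERG are filled at -1.50 and -4.13 for shYEATS2, and FLT4, TEK, PECAM1 and GJA4 are filled between 2.20 and 4.76 for shZZZ3. Points use a prior count and intervals do not.

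Over the 12 libraries the genes varied partly together. Pearson's r of log2 CPM was 0.890 for CDH5 and FLI1, 0.837 for KDR and EMCN, and 0.833 for PECAM1 and GJA4, while it was -0.312 for PECAM1 and ERG. These values describe 12 libraries that share lines, hairpins and depth. By the same measure the 3 genes most like KDR were PHC1 (0.960), HMGN2P15 (0.909) and ZNF521 (0.908), and those most like FLT1 were MERTK (0.955), SLC39A8 (0.941) and FOXN3 (0.936). For FLT4 they were APLNR (0.941), CLEC10A (0.915) and MARCH3 (0.907), and for TEK they were JPH4 (0.907), EPS8 (0.892) and SHC3 (0.879). KDR has a single library far above the rest, and by Spearman's rho, which is less moved by it, PHC1 reached 0.762. Of the 30 genes named here as most alike by Pearson's r, 9 were also among the 3 highest by Spearman's rho, and none of those named for KDR, CDH5, ERG or GJA4 was.

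The nearest patterns to CDH5 were those of MN1 (0.936), EML1 (0.934) and AFAP1L1 (0.929), and to PECAM1 those of GIMAP4 (0.928), ARHGEF15 (0.918) and ESAM (0.916). ERG had the closest neighbours, AC078925.4 (0.974), MAP7D2 (0.971) and NTN1 (0.968). FLI1 was nearest to ABCA9 (0.945), FAR2 (0.917) and RASEF (0.906). GJA4 was nearest to CRNN (0.910), DGKK (0.909) and SH2D3C (0.908), whose rho with it was 0.551, 0.644 and 0.734. EMCN, counted rarely, was nearest to FZD4 (0.945), ZNF521 (0.908) and FBXO39 (0.890).

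A list of VEGF and angiopoietin ligands, co-receptors and related genes was compared next. Of its 12 genes 11 were tested, and 0 passed in either TC knock-down by edgeR. At an unadjusted p under 0.05 there were 0 in TC shYEATS2 and 3 in TC shZZZ3, and DESeq2 called 0 and 1. In YT shNT, VEGFA, the ligand of KDR and FLT1, was at 247 and 278 CPM, against 50 and 64.1 CPM in TC shNT, a log2 difference of 2.20 (SE 0.245, adjusted p 3.54e-04). VEGFA fell to 82.4 and 104 CPM in YT shYEATS2 (-1.49, SE 0.24, adjusted p 0.00144) and to 59.6 and 72.0 CPM in YT shZZZ3 (-2.00, SE 0.243, adjusted p 8.25e-04). VEGFC, the ligand of FLT4, rose in YT shYEATS2 from 5.17 and 4.77 CPM to 31.4 and 29.9 CPM (2.60, SE 0.246, adjusted p 4.94e-05), where FLT4 itself was at 7 and 14 counts. NRP1, a co-receptor for VEGF-A, rose in both YT knock-downs, by 1.67 (adjusted p 0.00214) and 1.24 (adjusted p 0.0186). The related gene ANGPTL4 was higher in the YT than in the TC controls (1.80, SE 0.475, adjusted p 0.0365). PTPRB, a phosphatase that acts on TEK, differed between the lines in its answer to shZZZ3, by 1.79 (SE 0.389, adjusted p 0.0228), in the same direction as TEK.

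The shares of all genes called, given above for each comparison, are also the background for the lists of related genes that follow. All 18 endothelial transcription factors listed beside ERG and FLI1 were tested. In YT shZZZ3, SOX17, a factor of arterial endothelium, rose from 1 and 0.46 CPM to 10.8 and 7.66 CPM (3.50, SE 0.502, adjusted p 0.00141), and the flow-responsive factor KLF2 rose by 1.78 (SE 0.44, adjusted p 0.0232). LMO2 and KLF4 fell in both YT knock-downs. LMO2 went from 53.8 and 58.7 CPM in YT shNT to 20.8 and 17 CPM in shYEATS2 (-1.57, adjusted p 4.58e-04) and 22.1 and 17.8 CPM in shZZZ3 (-1.49, adjusted p 0.0015). KLF4 fell by 2.07 with shYEATS2 (adjusted p 0.00111) and by 1.52 with shZZZ3 (adjusted p 0.0102), and the YT controls were above the TC controls by 2.40 (adjusted p 0.0011). PROX1, the lymphatic regulator, was higher in YT shNT by 1.16 (adjusted p 0.046). In all, 4 of the 18 factors fell and 0 rose by edgeR in YT shYEATS2 (6 at an unadjusted p under 0.05, 3 by DESeq2), where 11.1% of all genes were called lower and 9.61% higher. In YT shZZZ3, 2 rose and 3 fell, against 4.4% and 5.62% of all genes, and 3 were higher in YT shNT, against 5.58%. In TC shYEATS2 and TC shZZZ3 0 of the 18 passed by edgeR, while 2 and 6 had an unadjusted p under 0.05 and DESeq2 called 1 and 3.

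**Figure D5:**
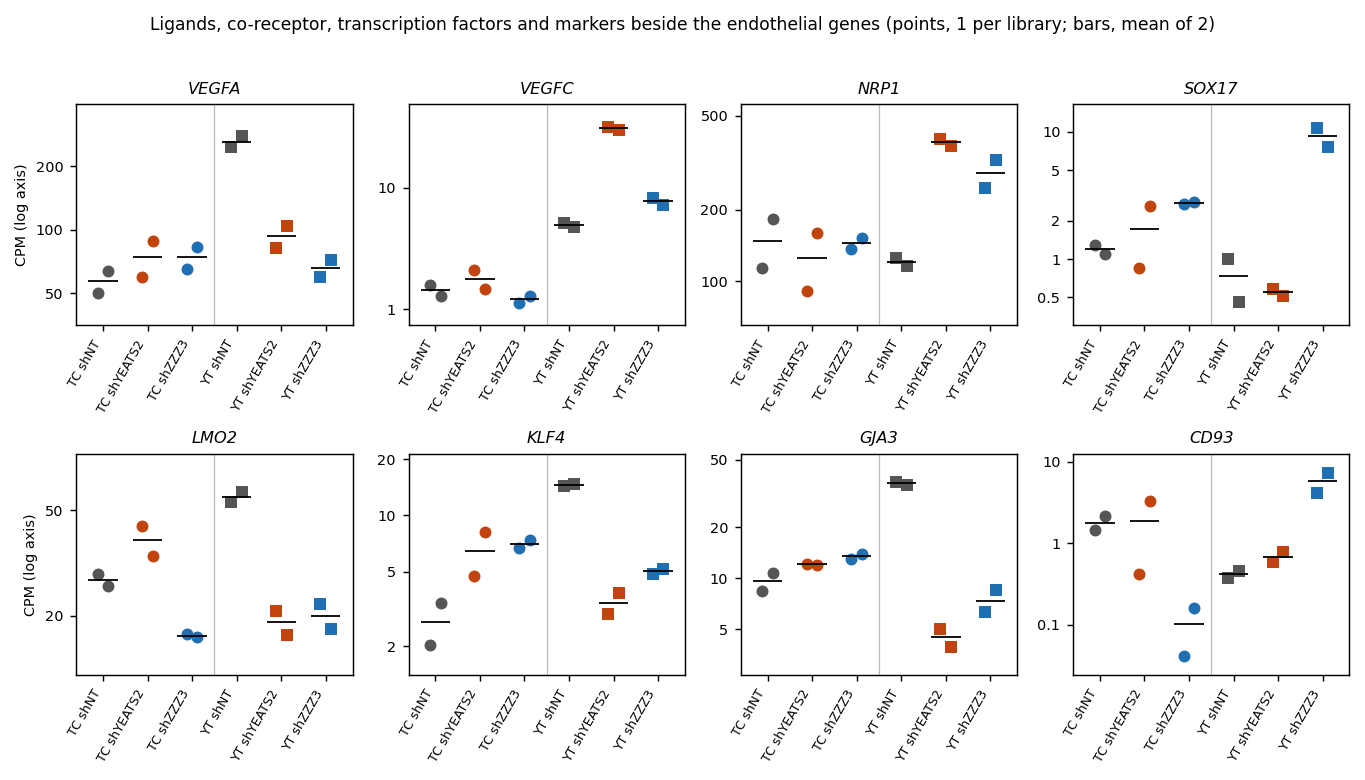
CPM in each library, on log axes that differ between panels, of 8 genes measured beside the 10 endothelial genes (circles TC, squares YT; bars are means of 2 libraries). VEGFA, LMO2, KLF4 and GJA3 are highest in YT shNT, VEGFC is highest in YT shYEATS2 at 31.4 and 29.9 CPM, and SOX17 and CD93 are highest in YT shZZZ3.

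Of 30 other endothelial markers 24 were tested, 3 had 3 or fewer counts in each of the 12 libraries, and 1 of these, ADGRL4, had no count at all. The list summed to between 955 and 1470 CPM per library, with ENG at 476 to 779 CPM and EPHB4 at 174 to 313 CPM. The 10 genes described above summed to between 110 and 399 CPM. In YT shZZZ3, 5 rose and 1 fell. CD93 rose from 0.37 and 0.46 CPM to 4.15 and 7.40 CPM (3.54, SE 0.791, adjusted p 0.0117). In TC shZZZ3 it had 4 counts in all against 83 in TC shNT, a ratio of 19.1 with a 95% counting interval of 7.18 to 71.6. That interval covers counting error only, and CD93 was not called in TC shZZZ3 by edgeR. CLDN5, the tight junction claudin of endothelium, had 0 counts in both YT shNT libraries and was at least 6.19-fold higher in YT shZZZ3 and at least 2.72-fold higher in YT shYEATS2 (adjusted p 0.0188 and 0.0452). SELP went the other way, from 4.01 and 3.91 CPM in YT shNT to 0.291 and 0.310 CPM in YT shYEATS2 (-3.38, SE 0.438, adjusted p 2.05e-04) and 0.655 and 0.465 CPM in YT shZZZ3 (-2.63, SE 0.389, adjusted p 0.00144). SELP also fell in TC shZZZ3 (-1.77, SE 0.326, adjusted p 0.0193), with VCAM1 (-1.40, SE 0.238, adjusted p 0.0144) as the other call of the list there. In YT shYEATS2, 1 rose and 4 fell. The effect of shZZZ3 differed between the lines for 5 of the 24, all higher in YT. That of shYEATS2 differed for 5, all lower in YT, among them APLNR by -2.82 (SE 0.649, adjusted p 0.0155). The TC shYEATS2 libraries stood apart for APLNR, at 4.05 and 11.2 CPM, against 3.05 and 2.44 CPM in TC shNT. These results were not repeated without single libraries.

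Notch pathway and arterial genes, a list of 14 that were all tested, moved in both directions. JAG1, a Notch ligand, rose from 44.2 and 49.7 CPM in YT shNT to 175 and 159 CPM in YT shYEATS2 (1.83, SE 0.172, adjusted p 4.94e-05) and 113 and 131 CPM in YT shZZZ3 (1.38, SE 0.17, adjusted p 8.25e-04). UNC5B fell in both as well as in TC shZZZ3, from 60.3 and 48.6 CPM to 21.9 and 19 CPM in the last (-1.41, SE 0.213, adjusted p 0.00772). HEY2, a target of Notch, rose in TC shZZZ3 (1.64, SE 0.268, adjusted p 0.00992) and fell in YT shYEATS2 (-2.24, SE 0.344, adjusted p 5.32e-04). BMX fell in TC shZZZ3 by 1.90 (SE 0.358, adjusted p 0.0225) and rose in YT shZZZ3 by 1.55 (SE 0.382, adjusted p 0.0221).

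Of 18 connexins other than GJA4, 8 were tested and 10 were under the filter, 8 of them with 3 or fewer counts in each library. In YT shZZZ3, where GJA4 rose, 0 of the 8 rose by edgeR and 1 fell, while 3 had an unadjusted p under 0.05 and DESeq2 called 2. The gene that fell, GJA3, was at 37.2 and 35.7 CPM in YT shNT and 6.30 and 8.50 CPM in YT shZZZ3 (-2.29, SE 0.239, adjusted p 3.75e-04). GJA3 fell further in YT shYEATS2, to 5.04 and 3.92 CPM (-3.00, SE 0.249, adjusted p 2.52e-05). GJA1 had 39 and 13 counts in YT shNT and 3 and 0 in YT shYEATS2, a ratio of 20.7 with a 95% counting interval of 6.7 to 104. Among 5 receptor kinases related to the VEGF receptors 4 were tested, and PDGFRA rose in YT shZZZ3 (1.36, SE 0.374, adjusted p 0.0403) while PDGFRB fell in YT shYEATS2 (-1.16, SE 0.253, adjusted p 0.00846).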

How the data were processed

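RNA was sequenced from SW872 lines (poly A, stranded kit) in 2 libraries per group, 12 in all. The deposited values are whole-number counts per gene, made by the authors with bcbio-nextgen on hg38. Whether they came from alignments (Hisat2) or from Salmon estimates is not given in the sources used here, nor is the sequence of the hairpins used. The per-sample files and the combined table differed in 0 cells. Groups came from the sample labels.

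Genes were kept for testing when their counts averaged 5 or more across all libraries (18415 of 58735). TMM scaling and two-sided quasi-likelihood tests in edgeR 4.0.16 (R 4.3.3, limma 3.58.1) were fitted over all 6 groups, with 6 residual degrees of freedom, for 7 contrasts. The p-values were adjusted by Benjamini-Hochberg over all genes tested, and "called" means an adjusted p under 0.05. The biological coefficient of variation was 0.205. Log2 fold changes used a prior count of 2, so those of genes with few counts are drawn toward 0, and fold bounds used a floor of 3 counts per library. Total counts limit precision for FLT4, GJA4 and EMCN, and counting intervals and floors cover counting error only. Exon lengths and loci came from GENCODE release 44 on GRCh38, which held 99.1% of the gene IDs, and promoters from RefSeq. DESeq2 1.42.0 was an alternative. The tests were checked on simulated data.

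All 10 genes were named with every library, with the 3 genes of highest Pearson's r for each. From the other lists called genes were named, at most the 2 furthest in each direction per contrast, and some others for their level only. The genes and lists were chosen with earlier results of these data known, so their counts are descriptions.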

Additional observations from a re-analysis of the deposited data

Results flagged for a closer look

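For 6 results the effect of a hairpin differed between the TC and YT lines by the interaction test of edgeR, with log2 differences given as YT minus TC and n = 2 libraries per group. With shYEATS2, FLT1 differed by -1.5 (adjusted p 0.0252), and it was lower in both YT shYEATS2 libraries than in both controls while TC shYEATS2 overlapped its controls. ERG differed by -4.13 (adjusted p 0.00186), with 17 and 20 counts in YT shYEATS2 against 170 and 174 in YT shNT. With shZZZ3, FLT4 differed by 2.94 (adjusted p 0.0214) and TEK by 2.2 (adjusted p 0.0182), both with values below the controls in TC and above them in YT in every library. PECAM1 differed by 3.97 (adjusted p 0.00735), likewise with opposite directions in all libraries of the lines. GJA4 differed by 4.76 (adjusted p 0.0175), with TC shZZZ3 overlapping its controls. The calls for FLT1, FLT4, TEK and GJA4 were lost without single libraries, named with their values beside each result above, and those for ERG and PECAM1 were kept without any one of the 8 libraries in their contrast. The confluence at collection may have differed between the lines, and it cannot be told apart from the fusion. ZZZ3 itself was at 21.9 to 22.7 CPM in TC shZZZ3 against 25.6 to 60.4 CPM in TC shNT. In YT it was at 12.6 to 29.6 CPM in shZZZ3 and 30.7 to 31.4 CPM in shYEATS2, against 49.1 to 71.2 CPM in shNT. The part of the depth of knock-down in these differences was not tested.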

How the results depend on the processing

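Of 843 values of the 10 genes under the alternatives, 725 kept direction and side of the threshold, 34 lost the call, 55 gained it and 29 turned direction. No value that turned had been called, and the cause of the changes was not tested unless the alternative itself removes libraries. By scaling with library totals or a filter at a mean of 20 counts, 0 of the 10 passed in TC shZZZ3 in place of 1. By DESeq2, 117 genes passed in TC shYEATS2 (8 by edgeR), 532 in TC shZZZ3 (281) and 1274 in the shZZZ3 interaction (795), and 3 of the 10 passed in TC shZZZ3, 2 between the control lines and 7 in the shZZZ3 interaction. With no filter, 213 genes passed in TC shYEATS2, 744 in TC shZZZ3, 2710 between the control lines (1699), 2611 in the shYEATS2 interaction (1725) and 1549 in the shZZZ3 interaction, and of the 10 genes 1, 6, 5, 5 and 8 passed in the same order, and 5 in YT shYEATS2. With only the libraries of each contrast, 4 genes passed in TC shYEATS2, 157 in TC shZZZ3, 8719 in YT shYEATS2 (3821) and 941 between the control lines, and 6 of the 10 passed in YT shYEATS2 and 7 in the shZZZ3 interaction.

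The difference between libraries 1 and 2 was correlated between groups, and 7 of 15 correlations were over 0.1 (range -0.438 to 0.898, median 0.031). Some groups thus differed alike between their same-numbered libraries. Whether such libraries shared a batch is not given in the sources used here. With the replicate block 28 genes passed in TC shYEATS2, and 2 of the 10 passed in TC shZZZ3 (TEK and ERG) and 2 between the control lines (TEK and FLT1). ERG passed in the shZZZ3 interaction (adjusted p 0.0457).

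When single libraries were left out, a group of 1 library was assumed to vary like the others. The genes called ranged from 2 to 77 in TC shYEATS2, 50 to 152 in TC shZZZ3, 1527 to 1654 in YT shYEATS2, 514 to 1545 in YT shZZZ3, 486 to 3108 between the control lines, 787 to 3023 in the shYEATS2 interaction and 204 to 1012 in the shZZZ3 interaction. Of the 10 genes, 0 to 3, 0 to 2, 2 to 2, 2 to 4, 0 to 1, 1 to 4 and 1 to 5 passed in the same order. The log2 values that turned in TC shYEATS2 ranged from -1.14 to 2.23 for KDR, -0.269 to 0.451 for FLT1, -0.925 to 0.0643 for TEK, -0.379 to 1.35 for CDH5, -0.0585 to 1.73 for PECAM1, -0.218 to 1.35 for ERG, -0.493 to 0.323 for FLI1, -0.692 to 1.39 for GJA4 and -0.873 to 1.47 for EMCN. In TC shZZZ3 they ranged from -0.00484 to 0.167 for CDH5, -0.111 to 0.266 for FLI1 and -0.976 to 1.04 for GJA4. Between the control lines they ranged from -0.319 to 0.0643 for FLI1, -1.6 to 0.357 for GJA4 and -0.995 to 0.0619 for EMCN. In the shYEATS2 interaction they ranged from -2.44 to 0.929 for KDR, -0.386 to 1.4 for PECAM1, -0.69 to 0.125 for FLI1, -0.746 to 1.34 for GJA4 and -2.04 to 0.299 for EMCN. In the shZZZ3 interaction FLT1 ranged from -0.416 to 0.294, and was 0.00343 with library totals and 0.0121 with no filter.

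A floor of 10 counts in place of 3 would add GJA4 and EMCN in YT shNT and EMCN in YT shYEATS2 to the groups at the floor.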
